A study of Rattus norvegicus with 8 samples.

Results

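Nr4a1, Nr4a2 and Nr4a3 form the NR4A family of orphan nuclear receptors, and they are followed here through rat lungs that were ventilated at an injurious tidal volume in 1 of 2 body positions. The members were found by gene symbol. 6 probe sets carried the symbol of exactly 1 of the 3 genes, out of 14993 probe sets with a single symbol for 11217 genes. The members were chosen by their measured log2 values and differences, with earlier results of these same arrays in view, where Nr4a3 stood among the largest differences of prone lungs. The members' levels and differences are therefore a description, and no test is given for them.

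RNA came from the dorsal-caudal quadrant of the lung of adult male Sprague-Dawley rats of 340 to 400 g, supplied by Harlan. 8 arrays were hybridised, each called a biological replicate: 2 from non-ventilated control rats, 3 from rats ventilated prone and 3 from rats ventilated supine. Each ventilated group was given 18 mL per kg, a high tidal volume, at 40 breaths per minute, without positive end-expiratory pressure (0 cmH2O), for up to 3 hours after anaesthesia, tracheotomy and jugular cannulation. The sources used here do not give whether control rats had the same surgery, so ventilation and surgery cannot be told apart. Sample titles carry HVt for prone and SVt for supine rats, but both have a high tidal volume as their condition. The tissue is a mixture of cell types, so fewer cells of a type and less RNA per cell cannot be told apart. The number of arrays limits the precision of every value.

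NR4A receptors are ligand-independent transcription factors. They are switched on through their own transcription, as immediate early genes, when cells receive cyclic AMP, calcium, growth factor, stretch or inflammatory signals. The proteins bind a short DNA element, the NBRE, alone, or related elements as pairs, and Nr4a1 and Nr4a2 can also pair with retinoid X receptors. In lung and vessel wall, family members are known as early genes of macrophages, endothelium and smooth muscle. Nr4a1 is also called Nur77, Nr4a2 Nurr1 and Nr4a3 NOR-1.

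1 array stood apart in RNA quality. On supine replicate 3 the gap between the 3′ and 5′ probe sets of beta-actin was 9.10 log2 units, against 3.16 to 4.64 on the other 7 arrays, and for GAPDH the gap was 8.41 against 0.70 to 1.92. For single genes, the text gives each supine difference of the main fit with its value without this array. Array medians lay between 7.77 and 7.95.

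Nr4a1 had 1 probe set (1386935_at), and it separated the positions. On the log2 scale it read 12.13, 12.38 and 11.82 in prone replicates 1 to 3, 8.70, 7.74 and 9.84 in supine replicates 1 to 3, and 10.25 and 7.75 in the controls. Every prone array lay above every other array, while the supine and control values overlapped. The mean was 12.11 ± 0.28 in prone (SD, n = 3), 9.0 ± 1.77 in control (SD, n = 2) and 8.76 ± 1.05 in supine lungs (SD, n = 3), so control and supine, the neighbours in this order, did not differ beyond their spread.

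The Nr4a1 difference between prone and control lungs was 3.11 ± 0.82 (log2, SE of the fit), rank 158 from the top of 16896 probe sets tested. Its size rested on the control chosen, since it was 4.37 without control replicate 1 and 1.86 without control replicate 2. In supine against control lungs the difference was -0.24 ± 0.82. It was 1.02 without control replicate 1, -1.49 without control replicate 2 and -0.78 without supine replicate 3, so no direction can be given. Supine against prone lungs needed no control array. There the difference was -3.35 ± 0.73, the rank 9 from the bottom of 16896, and -3.89 ± 0.74 without the degraded supine replicate 3.

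Nr4a2 was read by 2 probe sets at different parts of the scale. The brighter one (1369007_at) read 7.90, 9.07 and 8.68 in prone replicates 1 to 3, 5.03, 7.11 and 8.58 in supine replicates 1 to 3, and 6.79 and 6.92 in the controls. All 3 prone arrays and 2 of 3 supine arrays lay above both controls, and supine replicate 1 was the lowest of the 8. Prone (8.55 ± 0.59, SD, n = 3) was highest, with supine (6.91 ± 1.78, SD, n = 3) and control (6.85 ± 0.09, SD, n = 2) not apart beyond their spread.

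The prone difference of this Nr4a2 probe set was 1.69 ± 0.92 from control (log2, SE) and its rank 775. The supine difference from control was 0.05 ± 0.92, -0.78 ± 0.72 when supine replicate 3 was left out and 0.99 when supine replicate 1 was, so no direction can be given. Supine against prone stood at -1.64 ± 0.82, -2.48 ± 0.66 when supine replicate 3 was left out, and -0.71 when supine replicate 1 was. The groups overlapped, since supine replicate 3 exceeded prone replicate 1. The dimmer Nr4a2 probe set (1387410_at) stayed under log2 5 on all 8 arrays, the limit used for testing. It read 4.90 and 4.58 in prone replicates 2 and 3 and 2.26 to 3.04 on the other 6 arrays, prone replicate 1 among them.

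Nr4a3 had the widest range of the family. Its brightest probe set (1393389_at) read 2.42 and 2.96 in the controls, 8.97, 10.47 and 9.76 in prone replicates 1 to 3, and 6.01, 3.56 and 10.68 in supine replicates 1 to 3. All 6 ventilated arrays lay above both controls. The degraded supine replicate 3 was the highest of the 8 arrays, and supine replicate 2 lay less than 1 log2 unit above the higher control.

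A second Nr4a3 probe set (1369067_at) also put all 6 ventilated arrays above both controls, with prone replicate 2 the highest of the 8. It read 2.03 and 2.99 in the controls, 8.24, 9.69 and 9.13 in the prone group and 5.05, 3.40 and 9.0 in the supine group. Another Nr4a3 probe set (1369217_at) was dimmer and differed in the supine lungs. It read 2.87 and 2.95 in the controls, 4.25, 6.81 and 8.57 in the prone group and 3.10, 2.54 and 4.65 in the supine group, so that supine replicate 2 fell below both controls. This dim probe set reached log2 5 on only 2 arrays, both prone, and so was tested only because of the group in which it was high. The brighter Nr4a3 probe sets each reached log2 5 on 5 arrays, all ventilated. They too were tested only because of groups in which they were high.

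Nr4a3 differed from control by 7.04 ± 1.76 in prone lungs on its brightest probe set, rank 2 of 16896, by 6.51 ± 1.44 on the second, rank 3, and by 3.63 ± 1.17 on the dim one, rank 89. Supine against control gave 4.06 ± 1.76, 3.31 ± 1.44 and 0.52 ± 1.17 for the same probe sets. Without supine replicate 3 they were 2.09 ± 0.86, 1.71 ± 0.72 and -0.09 ± 1.26, so the dim probe set gave no direction. The control values lie near the low end of a scale that runs from 1.01 to 15.72, where the size of a difference is uncertain. The brightest probe set averaged 9.73 ± 0.75 in prone and 6.75 ± 3.62 in supine lungs (SD, n = 3 each). These means differed by less than the spread of the supine arrays, with supine against prone at -2.98 ± 1.58. The size of this difference rested on single supine arrays. It was -4.95 ± 0.79 without supine replicate 3, where the groups did not overlap, and -1.39 without supine replicate 2, where they did. Supine against prone stood at -3.21 ± 1.28 on the second probe set and -3.11 ± 1.05 on the dim one. Both differences exceeded the SD of either group, though the groups overlapped. They were -4.80 ± 0.66 and -3.72 ± 1.15 without supine replicate 3, and -2.00 and -2.67 without supine replicate 2.

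**Figure D1:**
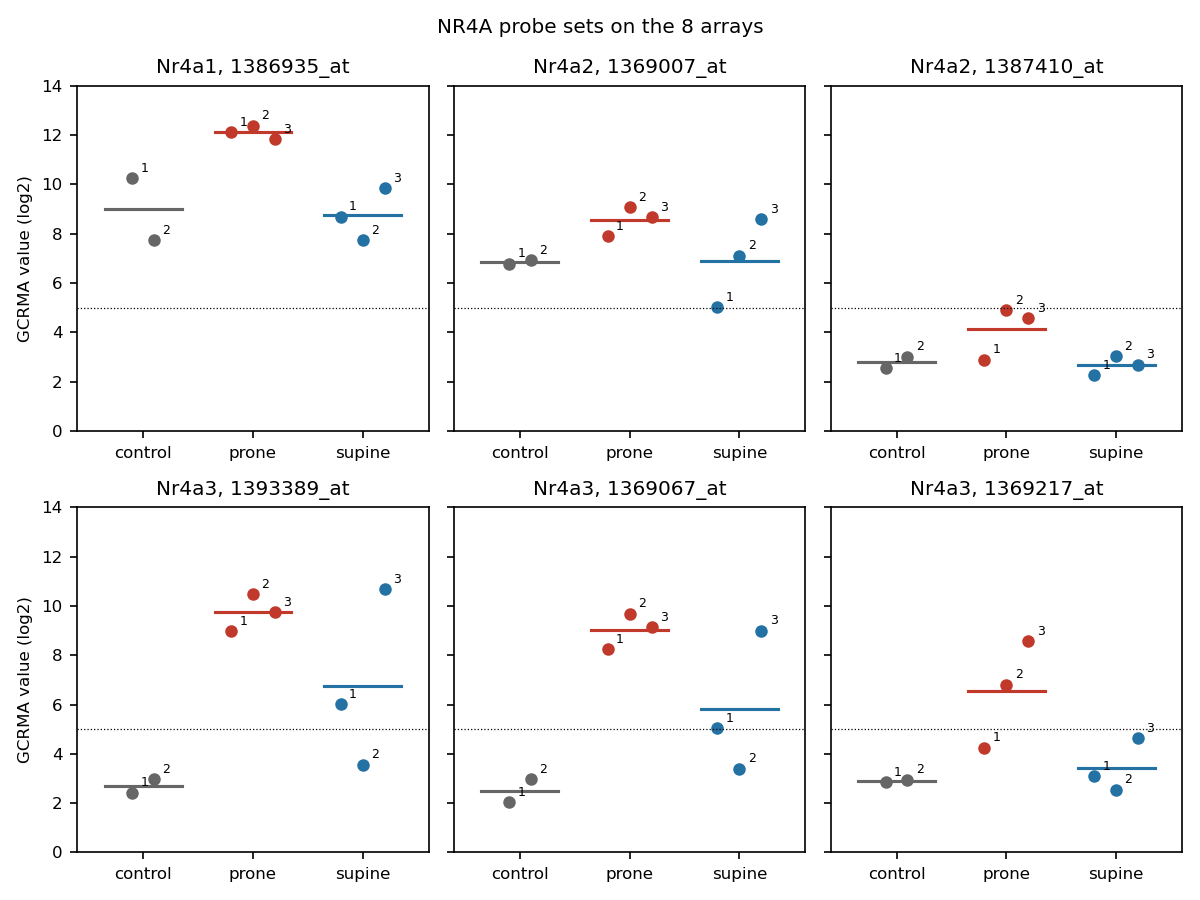
Each panel plots 1 NR4A probe set, with the deposited GCRMA value (log2) on the vertical axis and the 3 groups on the horizontal axis; points are single arrays with their replicate number, solid bars are group means and the dotted line marks log2 5. The prone points of Nr4a1 (11.82 to 12.38) sit above all other arrays, and supine replicate 3 is the highest array for the brightest Nr4a3 probe set at 10.68.

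Over the 6 probe sets, 5 had prone values wholly above control, where 20.9% of all probe sets tested did, and 2, both of Nr4a3, had supine values wholly above control, where 20% did. 1, that of Nr4a1, had supine values wholly below prone, where 2.11% did. The adjusted test called 0.0533% of probe sets in prone and 0.0533% in supine against control, and 0% between positions, where 4.09% had an unadjusted p under 0.05. These contrasts were in view when the family was chosen, so nothing is read from the counts. The prone and supine comparisons share their 2 control arrays. The ventilated arrays were not ordered alike by the 3 genes. Supine replicate 2 was the lowest supine array for Nr4a1 and Nr4a3, while supine replicate 1 was the lowest for Nr4a2.

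The promoter of Nr4a1 is shown because the gene is a textbook target of CREB, the factor that binds the cyclic AMP response element (CRE), and because the genes most like it below include other CREB targets. Sequences are from RefSeq (GRCr8), the 250 bases upstream of 1 annotated start per gene, 5′ to 3′ on the gene's strand. Capitals mark 4 motifs on both strands: TGACGTCA (the palindromic CRE), TGCGTCA (a CRE-like variant), CGTCA (the short CRE core, which lies inside both) and AAAGGTCA (the NBRE). The variant TGCGTCA was chosen after the Nr4a1 sequence had been seen. Windows existed for 2 of the 3 members, Nr4a1 at chr7:134259888-134260137 on the plus strand and Nr4a2 at chr3:62104888-62105137 on the minus strand. Both, and the Slc25a25 window below, lie inside the annotated span of their gene, so other starts exist. For comparison, Sik1 (chr20:9958647-9958896, minus strand) is the CREB-responsive kinase gene most like Nr4a1, Slc25a25 (chr3:36116582-36116831, minus strand) follows Nr4a3, and Dusp1 (chr10:17184603-17184852, plus strand) encodes the phosphatase named in the series title.
Nr4a1: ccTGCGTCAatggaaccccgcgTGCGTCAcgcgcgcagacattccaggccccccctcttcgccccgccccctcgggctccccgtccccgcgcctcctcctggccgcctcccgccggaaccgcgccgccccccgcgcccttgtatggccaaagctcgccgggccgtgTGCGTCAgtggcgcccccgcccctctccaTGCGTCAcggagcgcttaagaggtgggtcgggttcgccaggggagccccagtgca
Nr4a2: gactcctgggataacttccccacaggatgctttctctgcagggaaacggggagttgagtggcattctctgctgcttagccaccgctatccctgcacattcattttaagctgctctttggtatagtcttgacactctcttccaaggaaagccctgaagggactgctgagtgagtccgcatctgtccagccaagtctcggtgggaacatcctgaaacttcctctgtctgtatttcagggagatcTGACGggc
Sik1: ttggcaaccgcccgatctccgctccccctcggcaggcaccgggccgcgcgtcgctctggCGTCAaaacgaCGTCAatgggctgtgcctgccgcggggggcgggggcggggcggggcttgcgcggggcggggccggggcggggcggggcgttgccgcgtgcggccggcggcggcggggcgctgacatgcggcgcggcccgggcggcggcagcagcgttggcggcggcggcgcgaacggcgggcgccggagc
Slc25a25: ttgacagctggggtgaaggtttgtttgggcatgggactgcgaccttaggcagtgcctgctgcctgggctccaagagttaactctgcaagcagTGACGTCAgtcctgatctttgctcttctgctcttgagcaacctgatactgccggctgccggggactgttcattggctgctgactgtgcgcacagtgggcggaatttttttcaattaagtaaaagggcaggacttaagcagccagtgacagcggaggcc
Dusp1: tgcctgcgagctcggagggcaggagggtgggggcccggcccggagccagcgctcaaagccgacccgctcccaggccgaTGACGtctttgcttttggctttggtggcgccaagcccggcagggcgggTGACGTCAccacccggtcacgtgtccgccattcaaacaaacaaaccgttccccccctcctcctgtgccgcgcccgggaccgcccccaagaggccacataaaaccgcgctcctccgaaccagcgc

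The Nr4a1 window held TGCGTCA 4 times, starting 248, 228, 84 and 55 bases before the annotated start. 1.66% of 33469 promoter windows held this motif at least once, and Nr4a1 was the single window with 3 or more matches. Of 21 windows of the cAMP and CREB early response genes listed below, 0 held it. Since the motif was chosen from the Nr4a1 sequence, nothing is read from these shares. The Nr4a2 window held CGTCA once, 8 bases before the start, a core present in 18.2% of all windows. TGACGTCA, found in 1.59% of windows, occurred once in Slc25a25 and once in Dusp1, and the Sik1 window held CGTCA at 2 places. The NBRE occurred in 1.24% of all windows and in none of these 5. A match describes letters in a window and shows no binding in these lungs.

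Early genes induced by cyclic AMP and CREB were the nearest relatives of the NR4A genes in mode of induction, and 16 of 17 listed genes were tested. 12 of these 16 were higher in prone than in control lungs and 4 lower, with a median difference of 1.11 log2 units (0.69 without control replicate 1) against -0.15 over all 10240 genes. 9 had prone values wholly above control, where 18.6% of genes did, and 0 wholly below, where 29% did. 4 were higher and 0 lower at an unadjusted p under 0.05 (background 6.36% and 10.7%), and 0 passed at an adjusted p under 0.05, where 0.0391% of genes did (limma, Benjamini-Hochberg). Over the 3 prone arrays the list's median stood at 1.47, 0.96 and 0.78 above the control mean.

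Egr1, a zinc finger early gene, had a mean of 14.12 ± 0.23 in the prone and 11.03 ± 1.00 in the control group (SD), a difference of 3.09 ± 0.78 (SE; adjusted p = 0.129 by limma). Sik1, a kinase that dampens CREB signalling, differed by 1.39 ± 0.32 (adjusted p = 0.114 by limma). Crem, whose ICER product represses CREB targets, read 12.47, 13.27 and 12.27 in the prone and 10.47 and 10.77 in the control group, a difference of 2.05 ± 1.05. Ptgs2, the inducible cyclooxygenase, stood at 2.44 ± 0.88 and Fos at 1.20 ± 0.87. Gem, a small GTPase gene named after its values were seen, had the largest difference of the list at 4.25 ± 1.16. None of these passed over all probe sets.

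In supine lungs the same list stood near the level of all genes. 9 genes were higher than control and 7 lower, with a median of 0.06 against -0.07 over all genes, and 3 lay wholly above and 1 wholly below control (background 19.4% and 22.9%). 0 passed the adjusted test, where 0.0391% of genes did, and 3 were higher and 0 lower at an unadjusted p under 0.05 (background 6.48% and 7.86%). Without the degraded supine replicate 3 the median was -0.17, with 6 higher and 10 lower, 3 wholly above and 3 wholly below control (background 24.2% and 25.7%). On supine replicates 1 to 3 the list's median stood at 0.15, -0.16 and 0.95 from the control mean. Per1, a clock gene with a CRE, stood at 1.99 ± 0.73 (adjusted p = 0.292 by limma) and the growth factor gene Areg at 2.54 ± 0.97 (adjusted p = 0.299 by limma). Without supine replicate 3 they stood at 1.75 ± 0.83 and 1.84 ± 0.92.

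Between positions, 12 of the 16 genes were lower in supine than in prone lungs, with a median of -0.79 against 0.07 over all genes. 5 had supine values wholly below prone (Sik1, Junb, Dusp1, Fos and Egr1), where 1.94% of genes did, and 0 wholly above, where 3.58% did. 4 were lower and 0 higher at an unadjusted p under 0.05 (background 1.11% and 2.33%). None passed the adjusted test, as for all 10240 genes (background 0%; smallest adjusted p of the list 0.942, limma). Without supine replicate 3 the median was -1.12, 8 genes lay wholly below prone (background 4.77%) and 0 wholly above (9.34%), and 7 were lower at an unadjusted p under 0.05 (background 1.65%).

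Sik1 read 9.41, 9.59 and 8.85 in prone and 7.93, 8.08 and 7.92 in supine lungs, against 8.06 and 7.71 in the controls. Its position difference was -1.31 ± 0.28 (-1.28 without supine replicate 3), and like Nr4a1 it was high on the 3 prone arrays alone. Dusp1, the MAP kinase phosphatase-1 gene, read 13.98, 14.14 and 14.32 in prone, 13.10, 13.12 and 13.74 in supine and 14.12 and 13.44 in control lungs. Its position difference of -0.83 ± 0.31 (-1.04 without supine replicate 3) was smaller, and its control values overlapped those of both ventilated groups. Junb, a partner of Fos, stood at -2.01 ± 0.69, with its lowest value, 7.71, on the degraded array, and at -1.31 ± 0.55 without it. Fos stood at -1.94 ± 0.78, or -2.79 ± 0.56 without that array.

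**Figure D2:**
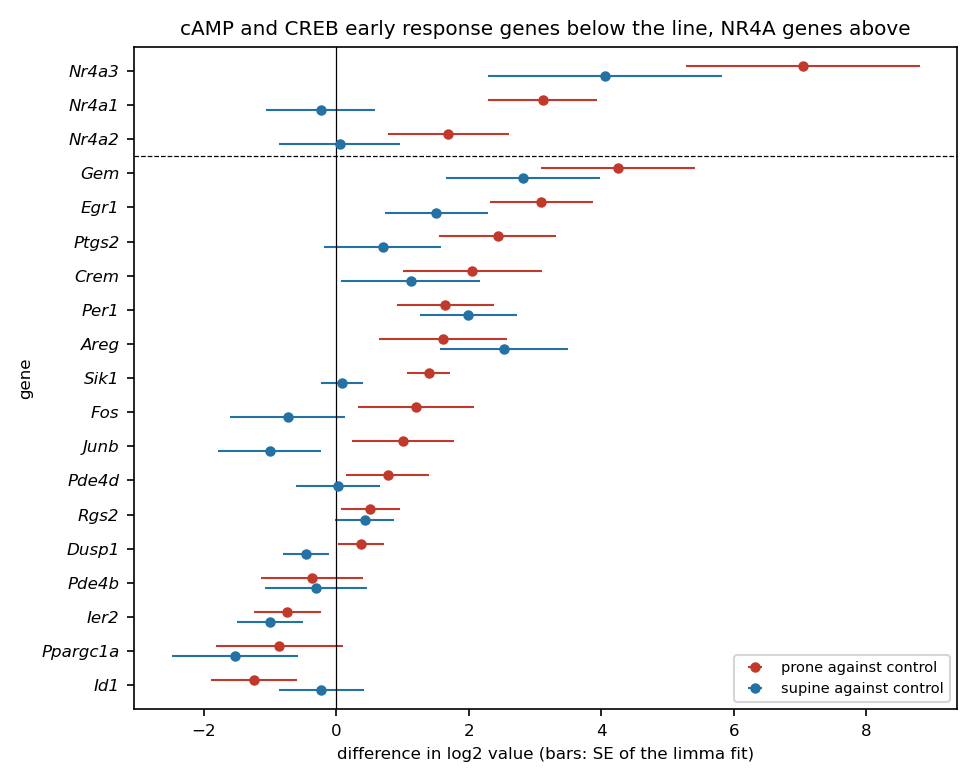
The horizontal axis is the difference in log2 value from control, for prone (red) and supine (blue) lungs, with bars for the SE of the limma fit; genes are on the vertical axis, the 16 cAMP and CREB genes below the dashed line and the 3 NR4A genes, shown as a description, above it. Nr4a3 lies farthest right at 7.04 and 4.06, and red points lie right of blue ones for Nr4a1, Sik1, Fos, Junb and Egr1.

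The kinases, coactivators and factors that carry signals to NR4A promoters showed no common shift. Of 30 listed, 25 were tested, and 10 were higher and 15 lower in prone lungs, with a median of -0.15, equal to that of all genes. 5 lay wholly above and 8 wholly below control, near the shares of all genes (18.6% and 29%). In supine lungs 10 were higher and 15 lower (median -0.17), with 4 wholly above and 6 wholly below control (background 19.4% and 22.9%). Without supine replicate 3 these were 11 higher and 14 lower (median -0.08), with 4 and 7 wholly apart (background 24.2% and 25.7%). None passed the adjusted test in any comparison (smallest adjusted p 0.0851, limma). At an unadjusted p under 0.05, 1 was higher and 1 lower in prone (background 6.36% and 10.7%), 1 higher and 2 lower in supine lungs (6.48% and 7.86%) and 0 either way between positions (2.33% and 1.11%).

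Crtc2, a CREB coactivator released by cyclic AMP and calcium, had the smallest p of this list. It read 8.21 and 8.22 in the controls, 9.69, 9.92 and 9.91 in the prone and 9.69, 9.38 and 9.19 in the supine group. All 6 ventilated arrays were above both controls, by 1.62 ± 0.28 in prone (adjusted p = 0.0851 by limma) and 1.20 ± 0.28 in supine lungs (adjusted p = 0.194 by limma; 1.32 ± 0.27 without supine replicate 3). Creb1 itself stood at -0.21 ± 0.50 in prone and -0.95 ± 0.50 in supine lungs (-1.08 without supine replicate 3). Nfatc1, a calcineurin-dependent factor, stood at -1.22 ± 0.37 in prone, and the NR4A-repressing deacetylase gene Hdac5 at -1.22 ± 0.42 in supine lungs (-0.92 without supine replicate 3). Between positions, the 2 smallest p-values of the list were those of Crtc2 (-0.42 ± 0.25) and Creb1 (-0.74 ± 0.45), or -0.30 and -0.87 without supine replicate 3.

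Partners and co-regulators of the NR4A proteins were tested for 9 of 16 listed genes. 7 were higher and 2 lower in prone lungs (median 0.24), and 6 higher and 3 lower in supine lungs (median 0.13), or 5 and 4 without supine replicate 3 (median 0.13). None passed the adjusted test in either comparison. Rxrb, a retinoid X receptor, had means of 8.04 ± 0.18 in prone, 7.71 ± 0.55 in supine and 7.18 ± 0.12 in control lungs (SD), a prone difference of 0.87 ± 0.37. Kdm1a, the demethylase of the CoREST complex that Nr4a2 can recruit, differed by 0.99 ± 0.42 in prone and 1.07 ± 0.42 in supine lungs, the latter 0.69 ± 0.30 without supine replicate 3. Rela, a subunit of NF-kappaB, stood at 0.63 ± 0.40 in supine lungs (0.51 without that array), and Ncoa3, a nuclear receptor coactivator, at -0.62 ± 0.30 in supine against prone lungs (-0.65 without it). Rxra and 6 other listed genes were not analysed here.

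Genes described as NR4A targets in other tissues, 9 of 23 listed, did not stand higher as a group. In prone lungs 8 of the 9 were lower and 1 higher, with a median of -0.96 against -0.15 over all genes. 4 lay wholly below control (background 29%) and 0 wholly above, 0 passed the adjusted test, and 1 was lower at an unadjusted p under 0.05 (background 10.7%). In supine lungs 6 were lower and 3 higher, with a median of -0.87, which was -0.80 without supine replicate 3, -0.18 without control replicate 1 and -0.23 with no filter on low values. 5 lay wholly below control (background 22.9%) and 1 wholly above (19.4%), or 6 and 1 without supine replicate 3 (25.7% and 24.2%). 4 were lower at an unadjusted p under 0.05 (background 7.86%), or 1 without supine replicate 3, and 0 passed the adjusted test. Fbp2, a gluconeogenic enzyme, stood at -1.21 ± 0.49 and E2f1, a cell cycle factor, at -0.74 ± 0.36 in prone lungs. Ucp2, a mitochondrial carrier, stood at -1.95 ± 0.71 and E2f1 at -0.97 ± 0.36 in supine lungs, or -1.15 ± 0.29 and -0.90 ± 0.40 without supine replicate 3. Between positions the median was 0.17 (0.27 without supine replicate 3), and Bcl2l11, which encodes the death-promoting protein Bim, stood at 1.00 ± 0.60 and Fbp2 at 0.73 ± 0.44, or 0.60 ± 0.63 and 0.66 ± 0.51 without that array.

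Among other nuclear receptors, 20 of 45 listed genes were tested. 15 were lower and 5 higher in prone lungs, with a median of -0.28 (-0.48 without prone replicate 3). The largest positive difference of these 20 in prone lungs was 1.00 ± 0.45 for the oxysterol receptor gene Nr1h3, named after its values were seen, against 1.69, 3.11 and 7.04 for Nr4a2, Nr4a1 and Nr4a3. No test is given for this contrast, since the NR4A genes were chosen for it. 2 receptors lay wholly above control and 4 wholly below (background 18.6% and 29%), and 0 passed the adjusted test. The retinoic acid receptor gene Rarb had a mean of 9.06 ± 0.20 in the prone and 10.25 ± 0.03 in the control group (SD; -1.19 ± 0.33, adjusted p = 0.145 by limma).

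In supine lungs 14 of the 20 other receptors were lower and 6 higher, with a median of -0.74, or -0.46 without the degraded supine replicate 3 and -1.10 without supine replicate 2. 8 lay wholly below control (background 22.9%) and 3 wholly above (19.4%), or 9 and 5 without supine replicate 3 (25.7% and 24.2%), and 0 passed the adjusted test. Thra, a thyroid hormone receptor, stood at -2.40 ± 0.79 and Rarb at -0.77 ± 0.33, or -2.10 and -0.98 without that array. Several receptors were lowest on supine replicate 3, and 3 of them are named after their values were seen. Nr1h2 read 5.21 there against 9.08 to 10.43 elsewhere, Rara 4.86 against 6.92 to 8.77 and Rarg 4.90 against 7.55 to 8.58. The part of RNA quality in these values was not tested. The glucocorticoid receptor gene Nr3c1 stood at -0.38 ± 0.42 in prone and -0.73 ± 0.42 in supine lungs (-0.72 without supine replicate 3). Between positions, the smallest p-values of the list belonged to Nr1d1, a haem receptor of the clock (-1.07 ± 0.56), and Nr2f1 (0.60 ± 0.32), and 0 genes passed. Without supine replicate 3 they stood at -0.90 and 0.61.

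**Figure D3:**
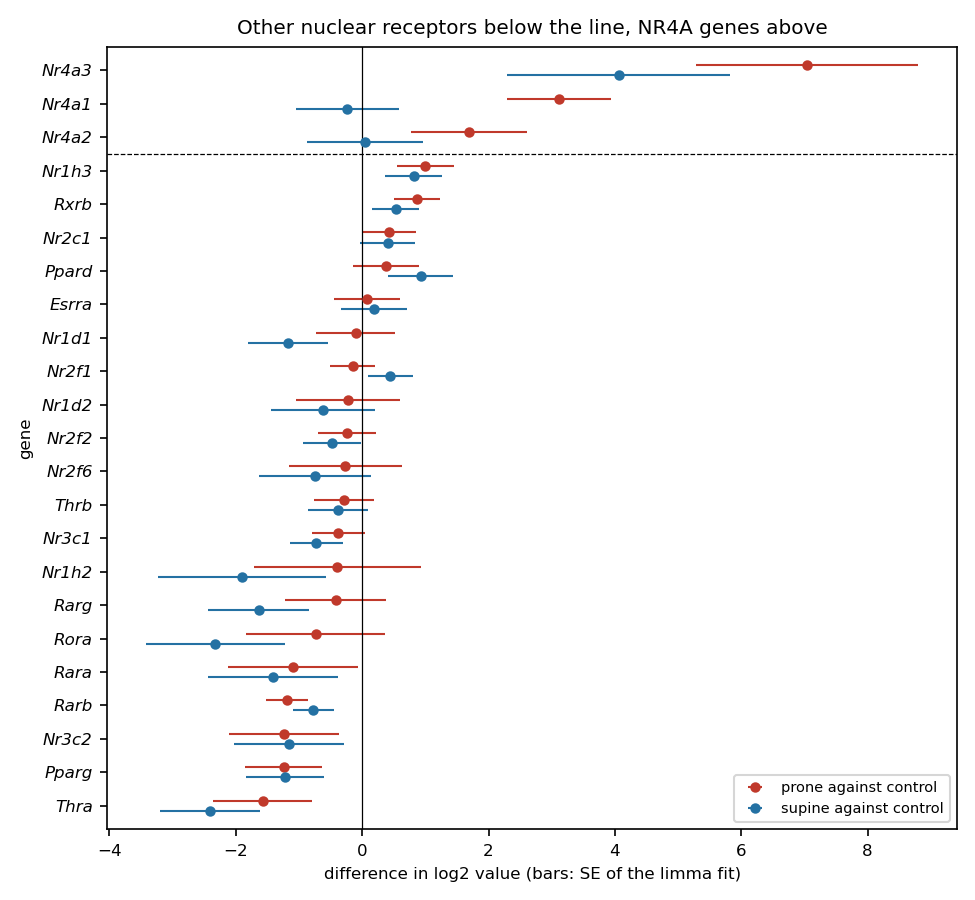
Differences in log2 value from control (horizontal axis, bars for the SE of the limma fit) are drawn for prone (red) and supine (blue) lungs, with 20 other nuclear receptor genes below the dashed line and the 3 NR4A genes above it. The other receptors lie at 1.00 or below, while Nr4a3 reaches 7.04 in prone lungs.

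Genes with the pattern most like each member were ranked by Pearson's r over the 8 arrays among 10239 other genes, as a description in which all points share the same lungs, arrays and groups. The members were not among each other's nearest genes. Nr4a3 was the gene at rank 95 for Nr4a1 (r = 0.72, n = 8), Nr4a2 at rank 177 (r = 0.67), and Nr4a2 and Nr4a3 had r = 0.70. The 4 genes nearest Nr4a1 were Tsc22d4 (r = 0.92), Tagap (0.89), Sik1 (0.88) and Arhgap45 (0.88), with Dusp1 at rank 6 (0.87). Of these 4, Tagap had the widest range. It read 10.22, 10.99 and 10.20 in prone, 9.24, 8.56 and 9.78 in supine and 8.71 and 8.16 in control lungs. Like Nr4a1, it was lower in control replicate 2 than in control replicate 1, and its prone values lay above all others.

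The 5 genes nearest Nr4a2 were Sesn2 (r = 0.985), Pde4d (0.968), Ptgs2 (0.964), Hbb (0.961) and Giot1 (0.95), and 2 of them were on the list of cAMP and CREB genes. Sesn2 encodes a stress-induced regulator of growth signalling, and Pde4d a phosphodiesterase that breaks down cyclic AMP. Ptgs2 read 8.42, 9.58 and 8.94 in prone, 5.60, 7.14 and 8.98 in supine and 6.74 and 6.34 in control lungs. As for Nr4a2, supine replicate 1 was the lowest array and supine replicate 3 reached the prone values. Hbb, a beta globin gene, was also lowest on supine replicate 1, within a narrow range from 13.62 there to 14.94 on prone replicate 3.

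The 5 genes nearest Nr4a3 were Zfand2a (r = 0.984), an arsenite- and heat-induced gene, Slc25a25 (0.983), a mitochondrial carrier gene, Atf3 (0.979), a stress-induced transcription factor gene, Hspe1 (0.977), a mitochondrial chaperonin gene, and Chac1 (0.977), which degrades glutathione. Atf3 read 12.99, 13.83 and 13.46 in prone, 11.77, 9.93 and 13.32 in supine and 8.75 and 8.61 in control lungs. The order of the supine arrays was that of Nr4a3, with replicate 2 lowest and the degraded replicate 3 highest. Crem was at rank 56 for Nr4a3 (r = 0.93) and read 14.10 on supine replicate 3, its highest array. Dusp1 was at rank 1738 (r = 0.49).

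**Figure D4:**
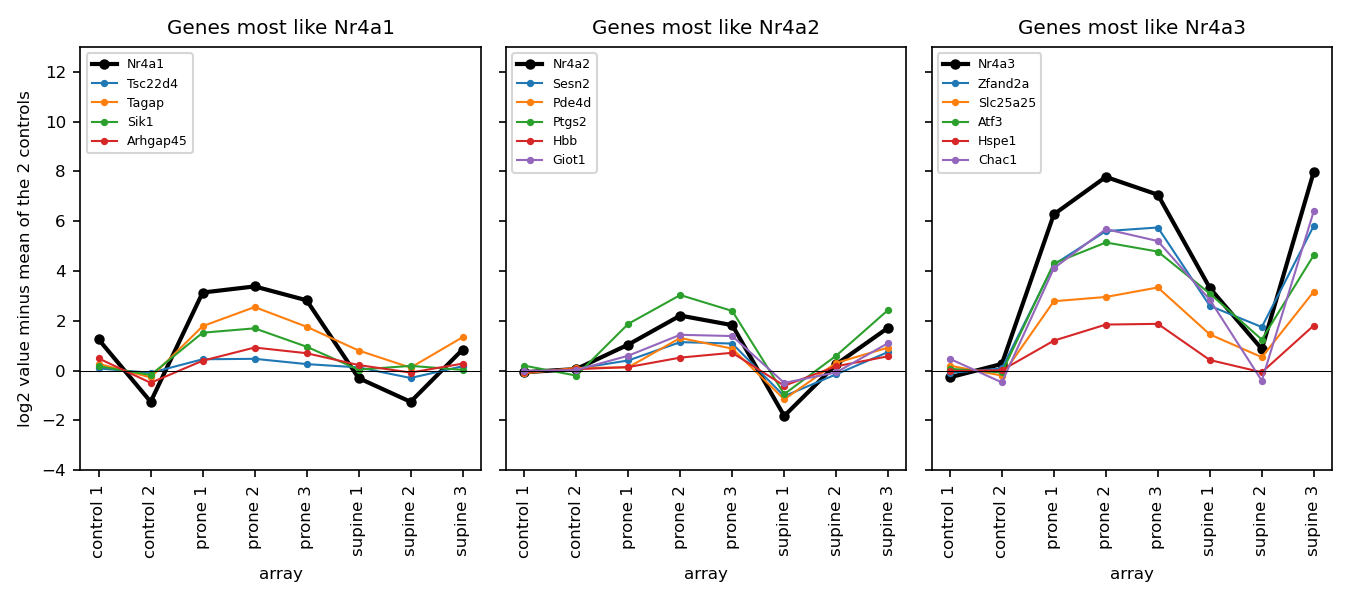
The vertical axis gives the log2 value minus the mean of the 2 controls and the horizontal axis the 8 arrays; each panel shows 1 NR4A gene in black and, in colour, the genes with the highest Pearson r to it, 4 for Nr4a1 and 5 each for Nr4a2 and Nr4a3. Nr4a1 is highest on the prone arrays, while Nr4a3 and its nearest genes are also high on supine replicate 3.

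Markers of several cell types moved with ventilation beside the NR4A genes. The lung's own epithelial markers were present on every array, with alveolar type 1 markers (5 of 5 genes) summing to 63.70 to 63.94 in control, 60.20 to 61.04 in prone and 57.65 to 61.98 in supine lungs (sum of log2 values). Of these 5, 4 lay wholly below control in each ventilated group (background 29% and 22.9%) and 1 wholly above. Alveolar type 2 markers summed to 84.04 to 84.88 in control, 79.65 to 83.23 in prone and 81.72 to 84.53 in supine lungs over 6 of 6 genes. All 7 of 7 neutrophil markers were higher in both ventilated groups, wholly above control (background 18.6% in prone and 19.4% in supine), and 0 passed the adjusted test. Of these, Cxcr2, Mmp8 and Mmp9 reached log2 5 on ventilated arrays alone. They were therefore tested only because of the groups in which they were high. The sum of all 7 markers was 45.26 to 47.30 in control, 61.80 to 82.16 in prone and 61.76 to 77.22 in supine lungs. The median of these markers stood above control by 5.40, 1.89 and 3.14 on prone replicates 1 to 3. On supine replicates 1 to 3 it was 3.80, 3.06 and 1.43, with the lowest ventilated value on the degraded supine replicate 3.

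T and NK cell markers were lower in all 6 of 6 genes, with sums of 51.31 to 59.19 in control, 30.23 to 45.87 in prone and 41.75 to 52.24 in supine lungs. Cardiac muscle markers (4 of 6 tested) summed to 12.32 to 12.50 in control, 13.43 to 35.72 in prone and 14.42 to 29.87 in supine lungs. All 4 reached log2 5 on ventilated arrays alone, so they were tested only because of groups in which they were high. They were highest on prone replicate 2 and supine replicate 3, by a median of 5.85 and 4.43 above control, and these were also the 2 highest arrays for the brightest Nr4a3 probe set, though not for the other two, which were highest on prone replicates 2 and 3. On prone replicate 3 the cardiac median was -0.02 and the brightest Nr4a3 probe set read 9.76. Macrophage and monocyte markers (5 of 6 tested) summed to 49.93 to 51.73 in control, 46.11 to 57.84 in prone and 50.54 to 58.06 in supine lungs, and endothelial markers (4 of 5) to 50.18 to 50.36, 45.74 to 50.05 and 46.95 to 49.57. Mesothelial markers were lower in 5 of 5 genes in both ventilated groups. Their sums were 43.50 to 43.88 in control, 26.94 to 35.73 in prone and 24.47 to 30.58 in supine lungs. 1, Bnc1, passed the adjusted test in each (adjusted p = 0.0172 and 0.0164 by limma), where 0.0391% of all genes did. Bnc1 reached log2 5 on the 2 controls alone, so it was tested only because of the group in which it was high. With the replicate block its adjusted p was 0.0819 in prone and 0.13 in supine lungs, and without control replicate 1 it was 0.283 and 0.278. Erythroid markers (3 of 4 tested), which include Hbb, summed to 24.60 to 25.14, 27.83 to 31.83 and 25.82 to 29.52, and B cell markers (2 of 4) to 14.52 to 17.55, 6.56 to 14.80 and 9.20 to 12.78. Of the erythroid markers, Rhd reached log2 5 on prone arrays alone. The lowest value in the whole table was 1.01, so a value above 0 does not show that a marker was present. The part of these cell types in the NR4A values was not tested.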

How the data were processed

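Per the submitters' processing notes, the authors used GCRMA and Partek 6.5 on Affymetrix rat arrays. The deposited values were read as log2 from their range. The sources used here give no filter of theirs, and without detection calls low values cannot be separated from background. Of 20214 probe sets other than 28 control ones, 16896 were tested, those that reached log2 5 on 2 or more of 8 arrays. GEO's platform annotation gave the symbols, and all 6 NR4A probe sets had the same symbol in RefSeq's GRCr8 table. The probe set with the highest mean stood for each of 10240 genes.

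Group means were estimated from the 8 arrays together in limma 3.58.1 (R 4.3.3; 5 residual and 2.51 prior degrees of freedom), two-sided, with Benjamini-Hochberg adjustment over all probe sets. Errors after ± are the SE of this fit unless SD is stated. The p-values set each difference of group means against the spread between arrays of the same group. The fit was tested on simulated data. A difference counts as called at an adjusted p under 0.05, and over all probe sets 9 were called for prone and 9 for supine lungs against control, and 0 between positions (691 at an unadjusted p under 0.05).

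The prone and supine samples share replicate numbers. Deviations from the group means correlated at 0.72, 0.29 and 0.20 for numbers 1, 2 and 3. Prone replicate 3 correlated best with supine replicate 2 (0.40). The numbers are not stated to pair animals, so the main fit did not use them. They served as a block only in an alternative fit. With the number as a block 0, 0 and 0 probe sets were called.

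The members, lists, markers and tests were chosen with earlier results of these data known. Named genes were the members; Dusp1, Creb1, Crem, Fos, Rxra and Nr3c1; the 2 smallest p per list and comparison; and the 5 genes most like each member, of which 1 is not reported here. Alternatives were other filters, scalings, fits and samples left out.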

Additional observations from a re-analysis of the deposited data

How the results depend on the processing

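Counts of called probe sets were unstable. In prone against control (9) they were 35 with no filter, 0 at a filter of log2 7, 0 with an intensity trend, 0 with the replicate block, 119 in a fit to only the groups compared, 728 without prone replicate 1 and supine replicate 1 together, and 0 to 115 with single arrays left out (115 without prone replicate 1, 90 and 65 without supine replicates 3 and 2, 5 without supine replicate 1, 0 without any other). In supine against control (9) they were 18, 0, 0, 0, 0 and 0 in the same order, and 0 to 153 with single arrays left out (153 without supine replicate 2, 0 without any other). Between positions (0) the count was 0 to 3, the 3 without prone replicate 1.

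With single arrays left out, Nr4a1 lay between 1.86 and 4.37 in prone and between -1.49 and 1.02 in supine against control. With the replicate block, differences from control were 2.92, 1.24 and 6.05 in prone and -0.43, -0.40 and 3.07 in supine lungs for Nr4a1, Nr4a2 and Nr4a3. The mean of its tested probe sets gave 5.73 and 2.63 for Nr4a3.

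Medians of the signalling route and of the partners were small and moved with scaling. With centred arrays they were -0.0098 (signalling route, prone), 0.38 (partners, prone) and 0.21 (partners, supine), and after quantile normalization 0.37 (partners, prone), -0.080 (signalling route, supine) and 0.20 (partners, supine). The replicate block gave -0.27 (signalling route, prone) and 0.20 (partners, supine), and the mean of probe sets -0.035 (signalling route, prone). With no filter target genes stood at -0.64, -0.23 and 0.42 in the 3 comparisons. Without both arrays numbered 1 the partners stood at 0.20 in supine against control and 0.024 between positions. With single arrays left out the ranges were as follows. In prone against control they were 0.69 to 1.24 for cAMP and CREB genes, -0.28 to -0.085 for signalling route, 0.17 to 0.39 for partners, -1.08 to -0.68 for targets, -0.48 to -0.18 for other receptors. In supine against control they were -0.25 to -0.055 for signalling route, 0.071 to 0.21 for partners, -1.07 to -0.18 for targets, -1.10 to -0.46 for other receptors. In supine against prone they were -0.25 to 0.081 for signalling route, -0.34 to -0.022 for partners. The cause of these shifts was not tested. Signal near the low end of the scale limits the Nr4a3 control values and the dimmer Nr4a2 and Nr4a3 probe sets.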
